A study of Mus musculus with 2 samples.

Results

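The genes described here encode the CD3 chains of the T cell receptor complex and the proteins that act directly after it. There are 9 of them among the 32285 genes counted: Cd3d, Cd3e, Cd3g, Cd247, Lck, Fyn, Zap70, Lat and Lcp2. They were taken by their symbols, in a choice made with earlier results of these data known. Single-cell RNA libraries were made from murine CD8+ T cells of lymph node origin, in a study of how electrical stimulation through the matrix relates to T cell fate. There was 1 library labelled NC and 1 labelled HC. The labels do not spell out either abbreviation, do not say which cells were stimulated, and give no strain, age, genotype or duration. With 1 library a group nothing could be tested. The 95% intervals given with the values express counting error alone.

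A T cell receptor binds antigen through its alpha and beta chains, which have no signalling part of their own. The CD3 delta, epsilon and gamma chains (Cd3d, Cd3e, Cd3g) and the zeta chain (Cd247) carry the tyrosine motifs, called ITAMs, that pass the signal into the cell. The Src-family kinases Lck and Fyn phosphorylate these motifs, the kinase Zap70 docks on them, and Zap70 then phosphorylates the adaptors LAT (Lat) and SLP-76 (Lcp2), on which the enzymes of calcium, Ras and NF-kappa-B signalling assemble.

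Cd3d, Cd3e and Lck were slightly lower in the HC library, Lat, Lcp2 and Fyn were lower by a larger amount, and Cd3g and Cd247 were level. Lcp2 stood apart in another comparison: its level was about 2-fold higher in cells with a UMI of Egr2, a transcription factor induced by receptor signalling, in both libraries. Cd3d and Cd3g were close to level in that comparison. Cd247 was lower in NC, though not once each cell was thinned to 2000 UMIs.

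The mouse genes Cd3g, Cd3d and Cd3e lie side by side on chromosome 9. In GENCODE vM21 (GRCm38, the mm10 build) Cd3g spans chr9:44969572-44980431 on the minus strand, Cd3d chr9:44981786-44987339 on the plus strand and Cd3e chr9:44998740-45009627 on the minus strand. The starts of Cd3g and Cd3d are 1355 bases apart and read in opposite directions, and those of Cd3d and Cd3e are 27841 bases apart. The remaining genes lie at chr1:165788681-165877277 (Cd247, plus strand), chr4:129548344-129573641 (Lck, minus strand), chr10:39368855-39565381 (Fyn, plus strand), chr1:36761798-36782818 (Zap70, plus strand), chr7:126363824-126369570 (Lat, minus strand) and chr11:34046920-34092295 (Lcp2, plus strand). All 9 are annotated as protein coding.

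The 250 bases before the start are printed for 4 genes. The 3 neighbours on chromosome 9 are shown because Cd3d and Cd3e were lower in HC while Cd3g, which shares the short stretch between its start and that of Cd3d, was level. Lcp2 is shown because it differed most between cells with and without an Egr2 UMI. The sequences are from the RefSeq table for GRCm38.p6, read 5′ to 3′ on the gene's own strand, and all 9 genes were found in that table. Windows and distances are counted from its starts, which can differ from those of GENCODE. Those of Cd3e and Lcp2 do, and their windows reach into the gene spans given above. Capitals mark matches on either strand to any of 7 motifs. The letters searched were CAGNTG for the E-box motif, AGGAAG for that of ETS factors, TGTGGT for that of RUNX factors and GTGGGCG for that of EGR factors. The others were TGANTCA for the motif of AP-1, TGACGT for the motif called CRE and AGATAA for the motif of GATA factors.
Cd3g, chr9:44980432-44980681, minus strand: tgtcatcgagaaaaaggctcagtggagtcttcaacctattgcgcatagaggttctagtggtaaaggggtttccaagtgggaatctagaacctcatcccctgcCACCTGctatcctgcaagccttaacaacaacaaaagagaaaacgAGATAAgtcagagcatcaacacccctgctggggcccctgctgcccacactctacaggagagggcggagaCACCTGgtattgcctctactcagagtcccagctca
Cd3d, chr9:44981536-44981785, plus strand: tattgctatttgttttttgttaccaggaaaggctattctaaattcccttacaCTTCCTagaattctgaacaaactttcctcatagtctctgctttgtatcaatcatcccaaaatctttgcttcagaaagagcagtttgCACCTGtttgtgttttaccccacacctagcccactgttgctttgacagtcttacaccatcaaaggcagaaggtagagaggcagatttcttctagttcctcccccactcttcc
Cd3e, chr9:45009612-45009861, minus strand: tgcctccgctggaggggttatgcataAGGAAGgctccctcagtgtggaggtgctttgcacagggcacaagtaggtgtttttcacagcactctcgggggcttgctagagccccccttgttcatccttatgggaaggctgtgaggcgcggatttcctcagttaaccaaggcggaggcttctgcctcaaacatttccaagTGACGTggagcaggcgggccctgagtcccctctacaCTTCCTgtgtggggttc
Lcp2, chr11:34046678-34046927, plus strand: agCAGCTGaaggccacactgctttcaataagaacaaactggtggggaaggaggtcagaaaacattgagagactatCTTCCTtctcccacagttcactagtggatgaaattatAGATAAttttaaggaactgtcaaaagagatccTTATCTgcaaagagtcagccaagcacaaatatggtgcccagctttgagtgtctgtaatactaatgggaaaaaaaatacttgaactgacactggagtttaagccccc

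The window of Cd3g held 2 E-box matches, 35 and 148 bases before the start, and 1 GATA match at 104 bases. That of Cd3d held 1 E-box match at 112 bases and 1 ETS match at 198 bases. That of Cd3e held ETS matches at 17 and 224 bases and a CRE match at 53 bases, with 0 E-box matches. That of Lcp2 held 1 E-box, 1 ETS and 2 GATA matches. No match in these 4 windows overlapped another. Neither EGR nor AP-1 letters were found in the windows of any of the 9 genes, and they are in 7.02% and 6.75% of the 32851 promoters of that length. E-box letters are in 44.8% of those promoters, ETS letters in 29.5%, RUNX letters in 14.0%, GATA letters in 9.99% and CRE letters in 6.47%. A match describes letters only and does not show binding, and its absence speaks only of this window.

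The libraries were of like depth and nearly all their cells carried CD8 transcripts. The NC library kept 13641 cells and the HC library 13617, at median depths of 6898 and 7425 UMIs (unique molecular identifiers, each marking 1 captured RNA molecule), or 115789139 and 114430972 UMIs in all. Cd8a or Cd8b1 without Cd4 was seen in 98.4% of the NC cells and in 98.3% of those from HC. Barcodes with over 10% mitochondrial UMIs made up 7.41% of the NC and 11.5% of the HC barcodes, and their part in the results was not tested. The libraries shared 49 of the kept cell barcodes, 0.359% and 0.36% of their cells. A library may differ from another for reasons other than the condition, and the library and the group cannot be told apart.

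The CD3 chain genes ranged widely in level. In CPM (UMIs per 1000000 UMIs), Cd3d stood at 1557 in NC (1550 to 1564) and at 1382 in HC (1376 to 1389). Cd3g stood at 1072 in NC (1066 to 1078) and at 1069 in HC (1063 to 1075). Cd3e, the chain that pairs with both delta and gamma, stood at 341 in NC (337 to 344) and at 308 in HC (305 to 311), and Cd247 at 103 in each. The level of Cd3d was thus separate in the libraries and that of Cd3g was not. Each captured molecule gives 1 tag at its 3' end, so levels of different genes were compared without division by length. Cd3d thus gave 4.57 UMIs for each of Cd3e in NC and 4.49 in HC, and Cd247 gave 0.302 and 0.334. Ranked among all genes counted, Cd3d stood at 105 in NC and 109 in HC, Cd3g at 128 and 127, and Cd3e at 311 and 344.

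The 5 signalling genes lay below Cd3e in each library. Lck stood at 285 CPM (281 to 288) in the NC cells and at 252 CPM (249 to 255) in the HC cells. Lat followed at 266 CPM (263 to 269) and 222 CPM (219 to 224). Zap70 was at 121 CPM (119 to 123) and 116 CPM (114 to 118), and Lcp2 at 108 CPM (107 to 110) and 86.0 CPM (84.3 to 87.7). Fyn was the lowest of the 9, with 84.4 CPM (82.7 to 86.1) for NC and 64.2 CPM (62.7 to 65.7) for HC. The order of the levels was the same in both libraries except that Lcp2 lay above Cd247 in NC and below it in HC, and in neither library did the intervals of neighbouring genes overlap. All 9 genes together took 0.394% of the UMIs in NC and 0.360% in HC.

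**Figure D1:**
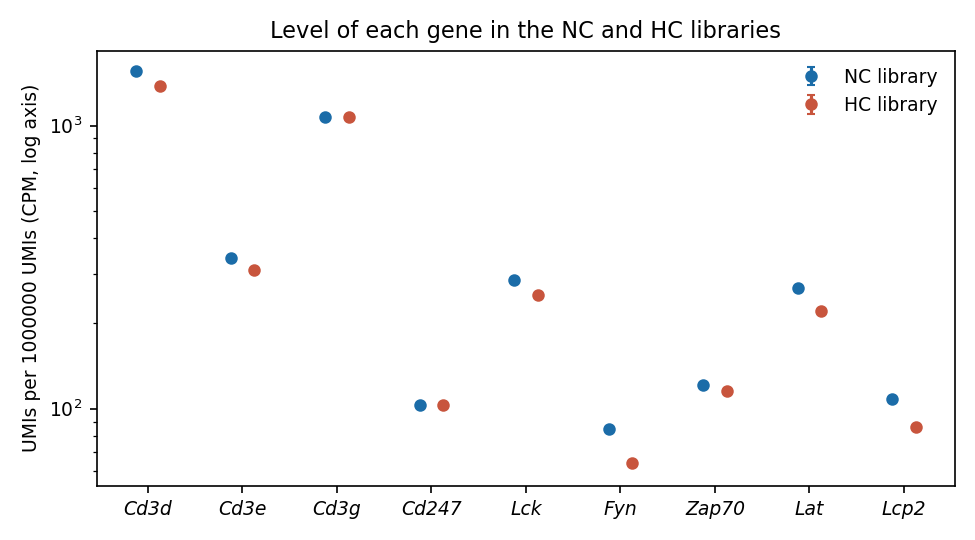
Level of the 9 genes in the NC and HC libraries in CPM on a log axis, with exact Poisson 95% intervals that are mostly smaller than the points. Cd3d and Cd3g lie above 1000 CPM in both libraries, and Fyn, at 84.4 and 64.2 CPM, is the lowest.

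Most cells carried some but not all of these transcripts at a fixed depth. Each cell was thinned to 2000 UMIs, which 13508 NC and 13523 HC cells allowed. Cd3d was then present in 95.4% and 93.1% of the cells, and Cd3g in 87.2% and 86.4%. Cd3e was found in 50.2% and 46.8%, Lck in 44.6% and 39.8%, and Lat in 39.7% and 35.4%. The shares were 21.5% and 20.2% for Zap70, 19.2% and 20.03% for Cd247, 17.6% and 14.5% for Lcp2, and 14.8% and 12.4% for Fyn. Before thinning they were higher, from 45.1% (Fyn) to 99.8% (Cd3d) in NC and from 38.7% to 99.9% in HC. A thinned cell held a mean of 3.90 of the 9 genes in NC and 3.69 in HC. No CD3 chain was found in 35 NC cells (0.259%) and 67 HC cells (0.495%), whereas none of the 5 signalling genes was found in 19.1% and 23.7%.

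Cells with B cell markers gave a check on transcripts picked up from outside the cell, though not a clean one. Only 36 NC and 12 HC cells held UMIs of at least 2 of 5 B markers. Cd3d was found in 88.9% of these NC cells (73.9 to 96.9) against 99.8% of the others, at median depths of 11977.5 and 6887 UMIs. It was found in 12 of 12 such HC cells. Their Cd3d level was 1164 CPM for NC and 1232 CPM for HC, against 1558 and 1383 CPM in the other cells. With Cd3d that high in them, whether they are B cells, T cells or both captured together was not tested, and they give no background level.

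By variance over mean, spread between thinned cells was close to that of counting alone for most members. The variance over the mean was 1.002 in NC and 1.01 in HC for Zap70, 1.02 and 1.03 for Cd3e, and 1.03 and 1.01 for Fyn, where counting alone gives 1. It was higher for Cd3d (1.17 and 1.14), Cd3g (1.12 and 1.16) and Lcp2 (1.14 and 1.08), with Lat between (1.09 and 1.05). Mki67, a gene transcribed in dividing cells, gave 1.96 and 1.87 by the same measure. For the same relative spread, this measure lies closer to 1 at a lower mean. It therefore does not rank the genes by relative spread. In NC the mean was 3.30 UMIs a cell for Cd3d, 2.19 for Cd3g, 0.206 for Lcp2, 0.243 for Zap70 and 0.162 for Fyn.

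Between the libraries, none of the 9 genes was higher in HC beyond counting error. Fyn had a log2 ratio of HC over NC of -0.39 (-0.44 to -0.35), Lcp2 of -0.34 (-0.37 to -0.30) and Lat of -0.26 (-0.29 to -0.24). These 3 of 9 were at least 1.2-fold lower in HC, against 11.5% of the 8704 genes that reached 5 CPM in NC or HC. Lck followed at -0.18 (-0.20 to -0.15), Cd3d at -0.17 (-0.18 to -0.16), Cd3e at -0.15 (-0.17 to -0.13) and Zap70 at -0.06 (-0.10 to -0.03). The intervals of Cd3g (-0.02 to 0.01) and Cd247 (-0.04 to 0.04) included 0. At least 1.2-fold higher in HC were 0 of 9, against 10.7% of all genes tested. At least 1.5-fold higher were 0, against 1.93%, and at least 1.5-fold lower also 0, against 1.47%. The median of the 9 was -0.17 and that of all genes tested -0.03.

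Lat, Lcp2 and Cd3d were lower in HC in all 4 classes of cells by Mki67 and Egr2, whereas the intervals of Lck included 0 in cells with Egr2 alone (-0.41 to 0.10) and with both (-0.20 to 0.08). In cells with neither a Mki67 nor an Egr2 UMI the HC over NC log2 ratio came to -0.32 for Fyn, -0.25 for Lcp2, -0.25 for Lat, -0.19 for Cd3d and -0.21 for Lck. In cells with Mki67 alone it was -0.38, -0.32, -0.23, -0.12 and -0.10 in the same order. Lck therefore differed less between libraries in the cells with Mki67 alone (-0.13 to -0.08) than in those with neither (-0.25 to -0.16), and these intervals do not overlap. For Lat the intervals of those 2 classes overlapped (-0.26 to -0.20 and -0.30 to -0.20). Zap70 was lower in HC in cells with Mki67 alone, at -0.11 (-0.15 to -0.06), but its interval included 0 in cells with neither (-0.02 to 0.12). Cd3g was slightly higher in HC in cells with neither, at 0.04 (0.02 to 0.06).

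**Figure D2:**
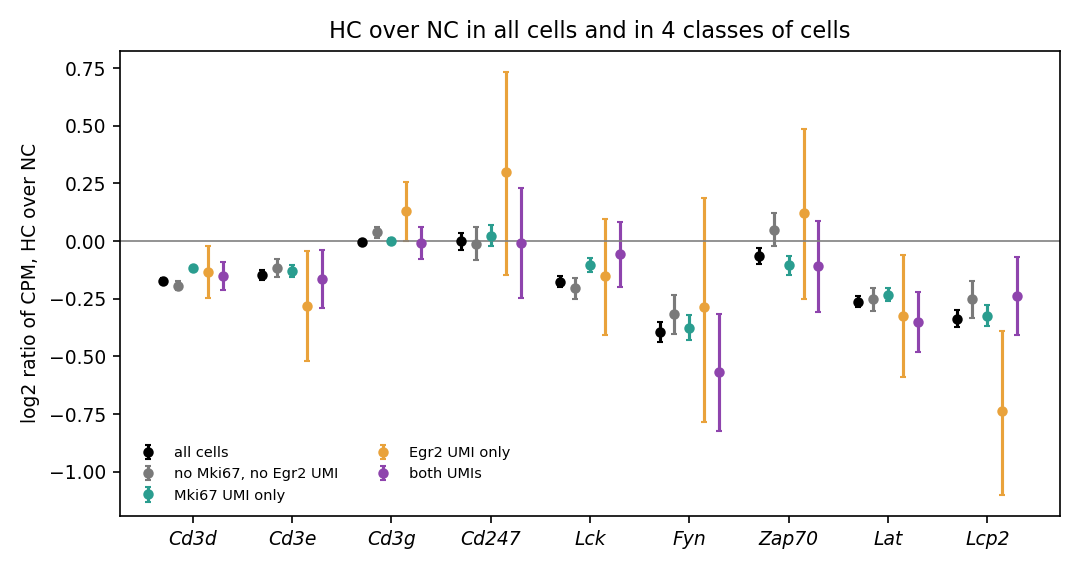
Log2 ratio of CPM, HC over NC, for each gene in all cells and in the 4 classes of cells by Mki67 and Egr2 UMIs, with exact binomial 95% intervals. Lat and Lcp2 lie below 0 in every class, and the intervals are widest in cells with an Egr2 UMI alone, of which there were 213 in NC and 81 in HC.

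The classes with Egr2 were small. In the 213 NC and 81 HC cells with Egr2 alone, Lcp2 had 240 CPM in the NC cells and 144 CPM in the HC cells, a log2 ratio of -0.74 (-1.10 to -0.39), and Fyn at 102 and 83.6 CPM, with an interval that included 0 (-0.78 to 0.19). In the 325 NC and 198 HC cells with both UMIs, Fyn was at 106 and 71.7 CPM, or -0.57 (-0.82 to -0.31), and Lat at 355 and 278 CPM, or -0.35 (-0.48 to -0.22). Lcp2 was at -0.24 there (-0.41 to -0.07).

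The makeup of the CD3 chain transcripts also differed between the libraries. Of the UMIs of the 4 chains, Cd3d made up 50.7% in NC (50.5 to 50.8) and 48.3% in HC (48.1 to 48.5), and Cd3g 34.9% (34.7 to 35.1) and 37.3% (37.2 to 37.5). Cd3e made up 11.1% and 10.8%, and Cd247 3.35% and 3.59%. The pair of neighbouring genes thus stood at 0.689 Cd3g UMIs per Cd3d UMI in NC (0.684 to 0.694) and 0.773 in HC (0.767 to 0.779). This pair was chosen after its values were seen. The ratio was higher in HC in cells without Mki67 (0.646 and 0.758) and with it (0.715 and 0.778), and the gap was narrower with it. In the cells with an Egr2 UMI it was 0.681 in NC (0.660 to 0.703) and 0.769 in HC (0.734 to 0.805).

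**Figure D3:**
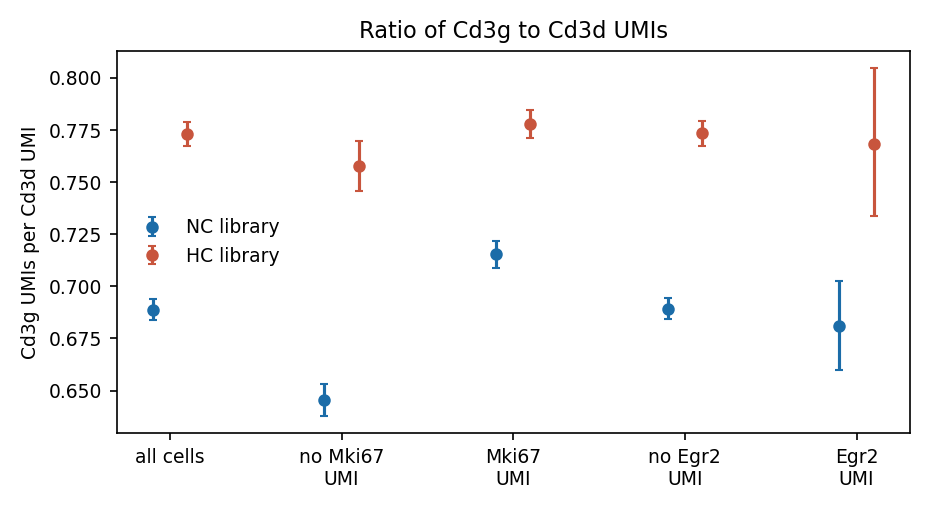
Number of Cd3g UMIs per Cd3d UMI in all cells and in cells with and without a Mki67 or Egr2 UMI, with exact binomial 95% intervals (the axis does not start at 0). The HC values, near 0.773, lie above the NC values in each class, and the lowest is 0.646 in NC cells without Mki67.

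Among the kinases, Fyn gave 0.297 UMIs per Lck UMI in NC (0.290 to 0.303) and 0.255 in HC (0.248 to 0.261), so Fyn was lower in HC relative to its fellow Src kinase as well. Zap70 per Lck stood at 0.425 (0.417 to 0.433) and 0.459 (0.450 to 0.469). Lat per Lcp2 stood at 2.45 (2.40 to 2.50) and 2.58 (2.52 to 2.64).

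Some overlapping genes could share reads with Cd247. The exons of Pou2f1, on the opposite strand, overlap those of Cd247 and held 1875 UMIs in NC and 2203 in HC, beside 11914 and 11773 of Cd247. Whether the counting used the strand is not given in the sources used here. Gm16565, on the same strand, held 155 and 189 UMIs. The genes whose exons overlap those of Cd3e and Lcp2 in GENCODE held at most 4 UMIs.

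Cells with a UMI of Mki67, a gene of dividing cells, made up 53.4% of NC cells (7285) and 69.2% of HC cells (9425). Top2a, a further gene of dividing cells, had a log2 ratio of 2.92 in NC and 3.21 in HC between cells with and without Mki67. The cells with Mki67 were also deeper, with a median of 9367 UMIs against 5703 in NC and 8774 against 5172.5 in HC. A deeper cell is also more likely to show a UMI of any gene, and values within deciles of depth are therefore given after the pooled ones.

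The CD3 chains took a smaller part of the UMIs in cells with Mki67, and Lck had the largest pooled difference of the 9. Lck was at 262 CPM in NC cells with Mki67 and 328 CPM in those without, and at 243 and 285 CPM in HC. Its log2 ratio, with over without, was -0.33 in NC (-0.36 to -0.30) and -0.23 in HC (-0.27 to -0.19). Cd3d was at 1464 and 1734 CPM in NC and at 1347 and 1519 CPM in HC, a log2 ratio of -0.24 and -0.17. Cd3e (-0.11 and -0.12), Cd3g (-0.10 and -0.14), Cd247 (-0.15 and -0.12), Fyn (-0.11 and -0.18) and Lat (-0.06 and -0.05) were also lower in cells with Mki67 in both libraries.

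Zap70 and Lcp2 were not lower with Mki67 when counted over all UMIs. Zap70 was at 125 CPM in NC cells with Mki67 and 114 CPM in those without, a log2 ratio of 0.13 (0.08 to 0.19), but in HC its interval included 0 (-0.09 to 0.04). Lcp2 was at 111 and 103 CPM in NC, or 0.11 (0.05 to 0.16), and in HC its interval included 0 (-0.01 to 0.13). Over totals without mitochondrial and ribosomal protein genes, which shift every gene by -0.10 in NC and -0.11 in HC, Zap70 stood at 0.03 and -0.14 and Lcp2 at 0.01 and -0.05. Lcp2 in HC thus lay on the other side of 0 under that scaling, and Zap70 kept its side in both libraries. At least 1.2-fold lower with Mki67 was 1 of 9 genes in NC (Lck), against 18.8% of all genes tested, and 0 in HC, against 16.7%. Over the totals without mitochondrial and ribosomal protein genes there were 2 in NC (Lck and Cd3d) and 3 in HC (Lck, Fyn and Cd3d). That scaling lowers the ratio of every gene, and the share over all genes was not counted under it, so these counts have no comparison. At least 1.2-fold higher were 0 in either library, against 25.8% in NC and 28.2% in HC. The median of the 9 was -0.11 in NC and -0.12 in HC, beside 0.03 and 0.05 over all genes tested.

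Compared within deciles of total UMIs, most of these differences were smaller. The deciles were cut over both libraries together, each weighed the same whatever its number of cells, and no interval was computed. In the deepest HC decile 98.4% of 1155 cells had Mki67, so few cells without it stood for that decile. Lck stood at -0.20 in NC and -0.08 in HC, and Cd3d at -0.10 and -0.01. Fyn stood at -0.18 and -0.14 and Cd3g at -0.04 and -0.12, so that in HC both lay further below 0 than Lck. In thinned cells of NC, Fyn was at -0.24 and Lck at -0.13. Lcp2 changed side, to -0.15 in NC and -0.13 in HC, and Cd247 was at 0.16 in HC. The level of Cd3d was lower in the deepest cells than in the shallowest: in NC it was at 1744 CPM in the shallowest decile, with a median of 3565 UMIs, and at 1345 CPM in the deepest, with a median of 17986, while Lcp2 was at 90.5 and 130 CPM. In HC the same deciles gave 1630 and 1241 CPM for Cd3d and 80.6 and 102 CPM for Lcp2. The share of NC cells with Mki67 was 40.5% in the shallowest decile, 94.3% in the deepest and lowest between them, at 30.9%.

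Cd3d was lower in each class with more Mki67 UMIs, and so was Cd3g, but Cd3e and Cd247 were not. In NC, Cd3d was at 1734 CPM in cells with 0, 1560 CPM in those with 1 or 2, 1453 CPM in those with 3 to 9, and 1392 CPM in those with 10 or more. In HC it was at 1519, 1384, 1349 and 1319 CPM. The median depth also went up over these classes, from 5703 to 13978.5 UMIs in NC and from 5172.5 to 11565 in HC. The classes therefore do not separate Mki67 from depth. Cd247 was at 110 CPM with 0 and between 97.0 and 101 CPM in the other classes of NC, and at 110 CPM and 101 CPM in those of HC. Cd3e was at 359, 348, 323 and 328 CPM in NC and at 329, 313, 299 and 300.2 CPM in HC. Lcp2 was lowest in cells with 1 or 2 and highest in those with 10 or more, at 94.8 and 129 CPM in NC and 76.5 and 98.7 CPM in HC, while the median depth went from 6017.5 to 13978.5 UMIs in NC and from 6548 to 11565 in HC.

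**Figure D4:**
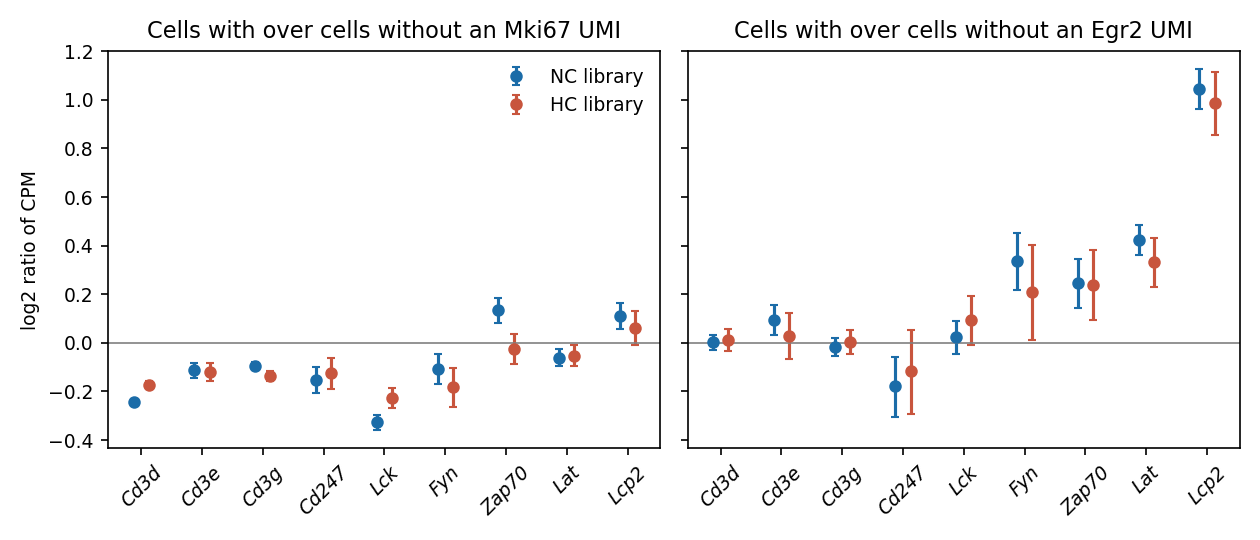
Log2 ratio of CPM between cells with and without an Mki67 UMI (left) and an Egr2 UMI (right) for each gene in the NC and HC libraries, with exact binomial 95% intervals. Lck is lowest on the left, at -0.33 and -0.23, and Lcp2 highest on the right, at 1.04 and 0.99.

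Cells with an Egr2 UMI were few, 538 in NC (3.94%) and 279 in HC (2.05%). They carried other genes induced soon after receptor signalling: Egr3 had a log2 ratio of 3.18 in NC and 4.42 in HC between cells with and without Egr2, Nr4a1 3.44 and 3.801, and Egr1 2.85 and 3.43. Of the genes of dividing cells, Top2a was close to level in them (0.01 and 0.07), while Cdk1 was higher (0.35 and 0.42) and so was Ccnb1 (0.15 and 0.34). They too were deeper, with medians of 10063.5 against 6804 UMIs in NC and 9521 against 7388.5 in HC.

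Lcp2, which encodes the adaptor SLP-76, had by far the largest ratio of the 9 genes in this comparison. It was at 212 CPM in NC cells with Egr2 (200.5 to 224) and 103 CPM in those without (101 to 105). In HC it was at 166 CPM (152 to 181) and 83.8 CPM (82.1 to 85.5). This is 2.06-fold higher in NC (1.95 to 2.18) and 1.98-fold in HC (1.81 to 2.17), log2 ratios of 1.04 and 0.99. Lcp2 was the 1 gene of the 9 at least 1.5-fold higher in cells with Egr2 in either library, against 3.68% of all genes tested in NC and 4.05% in HC.

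Lat was next in both libraries, followed by Fyn in NC and by Zap70 in HC. Lat, the membrane adaptor that works with SLP-76, was at 350 and 261 CPM in NC, a log2 ratio of 0.42 (0.36 to 0.49), and at 277 and 220 CPM in HC, or 0.33 (0.23 to 0.43). Fyn was at 105 and 83.2 CPM in NC, or 0.34 (0.22 to 0.45), and at 73.9 and 63.9 CPM in HC, or 0.21 (0.01 to 0.40). Zap70 was at 142 and 120 CPM in NC and at 136 and 115 CPM in HC, with ratios of 0.25 (0.14 to 0.34) and 0.24 (0.09 to 0.38). At least 1.2-fold higher with Egr2 were 3 of 9 genes in NC (Lcp2, Lat and Fyn), against 17.7% of all genes tested, and 2 of 9 in HC (Lcp2 and Lat), against 18.1%.

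The receptor chains and Lck showed little of this. Cd3d was at 1558 CPM in NC cells with Egr2 and 1557 CPM in those without, and at 1394 and 1382 CPM in HC. The intervals of the log2 ratio included 0 in both libraries for Cd3d (-0.03 to 0.03 in NC), Cd3g (-0.05 to 0.02) and Lck (-0.05 to 0.09). Cd3e was at 0.09 in NC (0.03 to 0.15), and its interval in HC included 0. In cells thinned to 2000 UMIs, of which 153 in NC and 71 in HC kept an Egr2 UMI, Cd3e was at -0.017 and -0.218. Cd247 was at -0.18 in NC (-0.30 to -0.06) and its HC interval also included 0. By the number of Egr2 UMIs it was at 104 CPM with 0, 96.3 CPM with 1 (87.7 to 105) and 76.0 CPM with 2 or 3 (61.7 to 92.6) in NC, and at 103, 99.8 (87.4 to 113) and 76.9 CPM (56.7 to 102) in HC. With at least 2 Egr2 UMIs against 0 its log2 ratio was -0.47 in NC and -0.39 in HC. The median depth in NC also went up over these classes, from 6804 UMIs with 0 to 9831 with 1 and 10761 with 2 or 3. Of 8 alternatives in NC, 7 kept Cd247 below 0, but in cells thinned to 2000 UMIs it was at 0.078. At least 1.2-fold lower with Egr2 were 0 of 9 genes, against 12.4% of all genes tested in NC and 13.3% in HC. The classes with Egr2 held 6180467 and 3031009 UMIs, so the ratios of genes at low levels carry more counting error here and add to these shares. The median of the 9 was 0.09 in both libraries, against 0.02 over all genes tested in each.

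The Lcp2 difference was present with and without Mki67. In cells without Mki67 its log2 ratio, Egr2 with over without, was 1.30 in NC (1.15 to 1.45) and 0.82 in HC (0.48 to 1.14), and in cells with Mki67 it was 0.93 (0.83 to 1.03) and 1.02 (0.87 to 1.16). Within deciles of total UMIs, weighed equally and without an interval, it was 1.14 in NC and 0.97 in HC. With cells thinned to 2000 UMIs, Lcp2 was found in 30.7% of the 153 NC cells that kept an Egr2 UMI (23.5 to 38.7) and in 17.5% of the others (16.8 to 18.1). In HC it was found in 26.8% of 71 cells (16.9 to 38.6) and 14.5% of the others (13.9 to 15.1). Lat per Lcp2 was 1.65 in NC cells with Egr2 and 2.54 in those without, and 1.67 and 2.63 in HC. Lcp2 therefore differed more between these cells than its partner did.

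By the number of Egr2 UMIs, Lcp2 was at 103 CPM in NC cells with 0, 194 CPM in the 423 cells with 1 (182 to 207) and 274 CPM in the 107 cells with 2 or 3 (246 to 304). In HC it was at 83.8 CPM with 0, 160 CPM in the 219 cells with 1 (144 to 177) and 187 CPM in the 56 cells with 2 or 3 (155 to 225). The intervals for 1 and for 2 or 3 UMIs overlapped in HC and not in NC. Only 8 NC and 4 HC cells held 4 or more, with Lcp2 at 251 CPM (167 to 362) and 174 CPM (79.7 to 331). Lat was at 341 CPM with 1 and 377 CPM with 2 or 3 in NC, and at 270 and 304 CPM in HC. Cd3d was at 1574 and 1518 CPM in NC and at 1398 and 1400 CPM in HC.

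**Figure D5:**
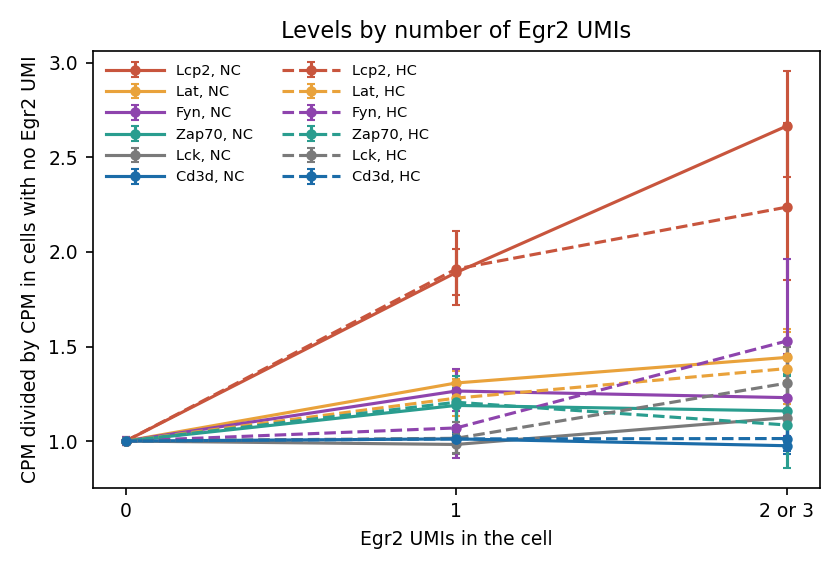
Level of 6 of the genes in cells with 1 and with 2 or 3 Egr2 UMIs, divided by the level in cells with 0, in NC (solid lines) and HC (dashed lines), with Poisson 95% intervals scaled by the same level. Lcp2 lies above the other genes, from 103 to 274 CPM in NC and from 83.8 to 187 CPM in HC, and Cd3d stays near 1.

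Cells with an Egr2 UMI were also fewer in HC, so the difference of Lcp2 between the libraries was also taken in cells with none. In cells with no Egr2 UMI it gave an HC over NC log2 ratio of -0.29 (-0.33 to -0.25), beside -0.34 in all cells. In cells with one it was -0.35 (-0.50 to -0.20). Fyn was at -0.38 and -0.51 in the same classes, and Lat at -0.25 and -0.34. Of the cells with Egr2, 423 of 538 in NC and 219 of 279 in HC held only 1 UMI of it. Cells that express Egr2 without a captured UMI may therefore remain in the class with none. Their part in the Lcp2 difference was not tested.

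Other genes of the pathway were taken from lists of 64 genes that left out the 9. With at least 5 CPM, 54 could be compared between libraries: their median HC over NC log2 ratio was -0.09, with 1 at least 1.2-fold higher and 9 at least 1.2-fold lower, beside 10.7% and 11.5% of all genes tested. Among receptor and co-receptor chains 7 of 9 lay below 0: Cd8a, the CD8 co-receptor chain, had 354 CPM in the NC cells and 244 CPM in the HC cells (-0.54), Cd5, which dampens receptor signals, at 213 and 155 CPM (-0.46), Cd6 at 144 and 106 CPM (-0.44) and the receptor alpha chain Trac at 363 and 296 CPM (-0.29). Among kinases and phosphatases 1 of 11 was at least 1.2-fold lower, the phosphatase gene Ptpn6 (SHP-1), at -0.35. Among adaptors 4 of 14 were, including Lax1 at -0.44 and Sh2d2a, an adaptor that binds Lck, at -0.42, while Themis, which acts in T cell development, was at 0.43. The enzymes that act beyond LAT had 7 of 10 genes above 0 and a median of 0.04, with Pik3cd, a PI3-kinase subunit, at 0.23 and Bcl10 at -0.25. Of 9 negative regulators 6 lay below 0, and none of them reached 1.2-fold. Over all genes tested 43.8% lay above 0, so most genes of any kind lay below it.

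In cells with Mki67 the pathway genes lay mostly lower, at a median of -0.22 in NC and -0.20 in HC, with 25 of 53 and 24 of 54 at least 1.2-fold lower and 2 higher in each. Over all genes tested 18.8% and 16.7% were lower at that size and 25.8% and 28.2% higher. Cd8b1 was at -0.43 and -0.36, and the receptor beta chain genes Trbc1 at -0.33 and -0.39 and Trbc2 at -0.29 and -0.30. The negative regulators had 7 and 6 of 9 at least 1.2-fold lower. Counted over all UMIs, the 9 genes described here, with 1 and 0 at that size, thus had a smaller share beyond it than the rest of the pathway. The difference was not tested.

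In cells with Egr2, 9 of 53 pathway genes were at least 1.2-fold higher and 7 lower in NC, beside 17.7% and 12.4% of all genes tested. In HC there were 10 of 55 higher and 11 lower, beside 18.1% and 13.3%. The counts in NC and the higher count in HC were close to these shares. The higher ones included Cd5 (0.35 in NC and 0.43 in HC), Ptpn6 (0.34 and 0.43) and Sh2d2a (0.42 and 0.39). The lower ones included the adaptor Grap2, a partner of SLP-76 (-0.35 and -0.43), Rasgrp1, which activates Ras (-0.35 and -0.43), and Pik3r1 (-0.41 and -0.37). At least 1.5-fold higher were 0 of the 53 genes in NC and 1 of the 55 in HC, beside 3.68% and 4.05% of all genes tested. That gene was the adaptor Sh2b3, at 8.58 against 5.30 CPM, with a log2 ratio whose interval was wide (0.07 to 1.26).

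Markers of other cells were given beside these comparisons and their part in the results was not tested. The 5 B markers summed to 35.4 CPM for NC and 16.5 CPM for HC, led by Igkc (20.8 CPM) in the former and Cd79b (13.9 CPM) in the latter, and 11.3 and 10.9 CPM in cells with Egr2. Of 5 natural killer cell markers 4 and 5 were detected, at 21.7 and 22.2 CPM, nearly all from Klrc1, and Ncr1 was at 0 in NC. Macrophage markers summed to 6.503 and 3.04 CPM with C1qa at 0 in both, and dendritic cell markers to 1.06 and 1.43 CPM with Siglech at 0. The 5 gamma-delta T cell markers summed to 132 and 111 CPM, of which Trdc gave 125 and 106. The 4 of helper and regulatory T cells summed to 232 and 253 CPM, led by Ctla4 (125 and 166), but Cd4 held only 1 UMI in NC and 2 in HC. The 3 of endothelium summed to 43.6 and 40.9 CPM, nearly all from Pecam1. Without cells holding a UMI of any B marker, an alternative chosen after the data were seen, the HC over NC log2 ratio came to -0.39 for Fyn, -0.33 for Lcp2 and -0.26 for Lat.

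Likeness of pattern was measured over 8 groups, the 4 classes in each library, which share each library's depth. Pearson's r is given as a description over these 8 points, among 5070 genes with at least 20 CPM. Among the 9 genes the closest pairs were Cd3d with Lck (0.94), Lat with Fyn (0.92) and Lat with Lcp2 (0.91), while Cd3d with Cd3g stood at 0.49 and Cd247 with Lcp2 at -0.72. Nearest to Cd3d over all genes were Rps7 (0.99), Trbc2 (0.99) and Tpt1 (0.99), and nearest to Lcp2 were Serpinb9, an inhibitor of granzyme B, and Nufip1 and Farsa (each 0.98). Nearest to Fyn was Trac (0.98), to Lat Xlr4b (0.99), to Lck Arhgap30 (0.99), to Zap70 Tob2 (0.98), to Cd3e Mien1 (0.98), to Cd3g Ccndbp1 (0.99) and to Cd247 Zfp386 (0.99). With so many genes searched over 8 points, high values are easily found.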

How the data were processed

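Single-cell RNA was measured in murine CD8+ T cells with the 10x 3' v3.1 kit, per the labels' protocols. The deposited matrices hold raw UMI counts made with Cell Ranger 6.1.2 per the file headers. Cell Ranger 5.0.0, Seurat 3.2.3 and mm10 appear in the submitters' processing notes. Kept cells had at least 500 genes, 1000 UMIs and at most 10% mitochondrial UMIs. Counts were summed over kept cells and divided by the total to give CPM, with no pseudocount. Depth was 115789139 UMIs in NC and 114430972 in HC, so a count of 0 allows at most 0.0259 and 0.0262 CPM (3 counts). CPM carry exact Poisson intervals, ratios and shares exact binomial (Clopper-Pearson) ones, at 95%. These cover counting error only.

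Each library is 1 sample, so no test was run and sizes of 1.5-fold and 1.2-fold describe differences among genes that reached 5 CPM in at least 1 of the groups compared. Classes were cells with and without a UMI of Mki67 or Egr2, the class gene being left out of its own comparison. Doublets were not removed and no caller was run. An alternative left out the 5% of cells with the most UMIs. For shares of cells, each cell was thinned to 2000 UMIs, and 133 NC and 94 HC cells were too shallow for this.

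The 9 genes, the pathway and marker lists and the classes were chosen with earlier results of these data known. Genes named are these 9, Mki67, Egr2 and their check genes, up to 4 genes of each pathway list with at least 5 CPM and the largest ratio, and the genes most like each of the 9 over 8 groups. TMM factors (edgeR 4.0.16) and median-of-ratios factors (DESeq2 1.42.0) were used for scaling only. The ratio, interval and thinning steps were tested on simulated data. GENCODE vM21 matched 32158 of 32285 identifiers (99.6%). Where RefSeq gave several starts, the one farthest 5′ was used. Python 3.11.15, numpy 2.4.6, scipy 1.17.1, pandas 2.3.3, matplotlib 3.10.9 and R 4.3.3 were used.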

Additional observations from a re-analysis of the deposited data

How the results depend on the processing

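No paired analysis was possible because there was 1 library per group. The median of the 9 HC over NC log2 ratios, -0.17, was -0.16 with TMM factors and with totals without mitochondrial and ribosomal protein genes, -0.19 with every cell weighing the same, -0.19 in cells thinned to 2000 UMIs, -0.19 without the 5% of cells with the most UMIs, and -0.15 as the mean of the 4 classes. At 1.2-fold in place of 1.5-fold, 3 genes were apart. Fyn, Lcp2, Lat, Lck, Cd3d, Cd3e and Zap70 stayed below 0 under all 12 alternatives, and Cd3g and Cd247 did not. The Mki67 median was -0.21 in NC and -0.24 in HC with totals without mitochondrial and ribosomal protein genes, which move every gene by -0.10 and -0.11, and -0.018 in HC within deciles of total UMIs. In those deciles Lcp2 was at -0.15 in NC and Cd247 at 0.16 in HC for Mki67. The Egr2 median in NC was 0.18 for at least 2 UMIs against 0, 0.16 within deciles and 0.18 in cells with no Mki67 UMI. In thinned cells, Egr2 in NC, Cd3e was at -0.017 and Cd247 at 0.078. Lcp2 in cells with Egr2 ranged from 0.88 to 1.41 in NC and from 0.82 to 1.15 in HC over 8 alternatives. Over single genes and alternatives, 265 values stayed within counting error of the reported one, 127 moved beyond it, and 4 whose interval had excluded 0 changed sign. The cause was not tested.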
